A study of Caenorhabditis elegans with 3 samples.

Results

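Promoters of 40 translation initiation and elongation factor genes of Caenorhabditis elegans were examined for binding of MEP-1. The genes were all nuclear protein-coding genes of the Ensembl WBcel235 annotation whose symbol starts with eif-, eef-, ife- or iff- followed by a digit, together with inf-1 and ifg-1. They were 40 of 19973 genes. MEP-1 is a zinc-finger protein of the nucleus, known as a partner of chromatin remodelling and deacetylase proteins that keep germline genes silent in somatic cells. ChIP-seq had been done on whole L4 larvae of strain OP102, labelled as pooled male and female animals, in 3 biological replicates of 1 group and with no second condition. All animals carried the unc-119(tm4063) allele on chromosome III and the integrated transgene wgIs102, which supplies MEP-1 with a GFP tag. The label of replicate 3 adds that the tag is GFP-FLAG at the C terminus, and gives this replicate another stock source. The protein mapped is thus that of a transgene in 1 strain, and in whole animals, binding in fewer cells and weaker binding per cell cannot be told apart.

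Initiation factors bring the small ribosomal subunit, the initiator tRNA and the capped mRNA together and find the start codon. Elongation factors then deliver aminoacyl-tRNAs and move the ribosome along the message. Growing larvae need these proteins in nearly every cell, and several factors exist in worms as paralogues of which one serves mainly the germline. A MEP-1 region has a point source, the position of strongest signal, and a score given by the authors' peak caller, which ranks regions within a list only. The authors' optimal list comes from the irreproducible discovery rate (IDR) procedure, which selects regions by how alike their ranks are between lists. A region kept need not rank alike in all 3 replicates: that of eif-2D ranked 2584, 13053 and 23771. A promoter was counted as bound when a point source of that list fell in a window reaching 500 bp upstream and 100 bp downstream of any annotated transcription start site (TSS) of the gene. The IDR list held 5229 regions on 5167 distinct intervals, and the list of each replicate held 30000 regions, of which the 5167 distinct ones with the highest scores are called its top regions. The highest score of a list was 2233 in replicate 1, 2304 in replicate 2 and 362 in replicate 3, so replicates were compared by rank, with 1 as the highest score. The relaxed lists run below the regions the IDR procedure kept.

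The DNA at the point source is shown for 5 high-scoring genes, iff-2, eef-1A.1, eef-1G, eef-1A.2 and eif-3.B. They let the base composition at strong regions be read directly. Sequences of eif-3.C, eef-2 and eef-1B.1, which score above eif-3.B, are not shown. Each stretch holds the point source, reads 5′ to 3′ in the direction of the gene, comes from the RefSeq copy of WBcel235 (the assembly of ce11) and was cut where an annotated exon began. Capitals mark CpG dinucleotides, whose density is compared with other bound promoters further on.
iff-2 (chrII:8561396-8561495, minus strand): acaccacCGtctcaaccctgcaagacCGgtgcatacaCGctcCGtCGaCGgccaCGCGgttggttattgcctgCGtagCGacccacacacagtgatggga
eef-1A.1 (chrIII:6972086-6972141, minus strand): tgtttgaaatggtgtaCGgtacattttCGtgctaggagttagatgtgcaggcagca
eef-1G (chrV:10965640-10965718, plus strand): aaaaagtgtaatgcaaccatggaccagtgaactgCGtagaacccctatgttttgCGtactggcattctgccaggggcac
eef-1A.2 (chrX:7823238-7823337, plus strand): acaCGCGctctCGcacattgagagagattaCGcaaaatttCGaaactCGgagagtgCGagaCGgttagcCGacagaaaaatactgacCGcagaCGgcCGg
eif-3.B (chrII:14795092-14795191, plus strand): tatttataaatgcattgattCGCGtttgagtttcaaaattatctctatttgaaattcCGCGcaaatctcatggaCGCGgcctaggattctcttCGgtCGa
The stretch of iff-2 held 10 CpG in 100 bases and that of eef-1A.2 held 12 in 100. The stretches of eef-1A.1 and eef-1G held 2 each, in 56 and 79 bases.

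MEP-1 point sources lay at the promoters of 26 of the 40 genes (65%), where 12.7% of all nuclear protein-coding genes were bound. Elongation factor genes were bound at 7 of 8 and initiation factor genes at 19 of 32. The highest scores belonged to iff-2, eif-3.C, eef-1A.1, eef-1G and eef-1A.2, and 14 genes, among them the cap-complex scaffold gene ifg-1 and the paralogues iff-1, ife-1 and ife-5, were not bound. The top regions of replicates 1, 2 and 3 taken alone gave 26, 24 and 23 of the 40 genes, beside 12.9%, 12.4% and 12.8% of all genes. In the top regions of all 3 replicates 20 of the 40 were bound, beside 8.75% of all genes. With 1 group there is no comparison of conditions, and no test of the 40 genes against other genes was made, since the genes were listed with results of these data known.

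**Figure D1:**
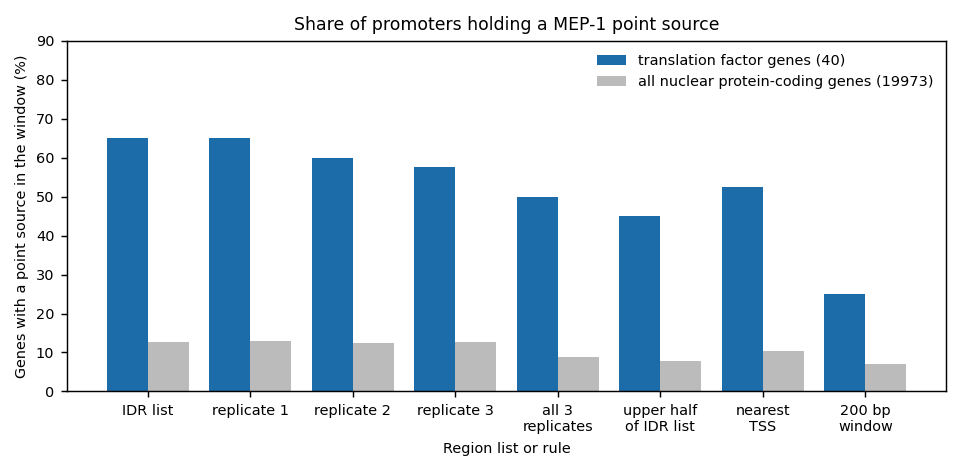
Share of genes with a MEP-1 point source in the promoter window (y axis, percent) under 8 lists or rules (x axis), for the 40 translation factor genes (blue) and for all 19973 nuclear protein-coding genes (grey). The blue bars run from 25% with a window of 200 bp upstream to 65% in the IDR list, and the grey bars from 6.96% to 12.9%.

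Bound translation factor promoters had a median score of 145 in the IDR list, from 64.8 to 1073, and the 2507 other bound genes had a median of 127. Of the 26, 15 lay above that median. Among the 500 highest ranks of the IDR list were 7 of the 26 (26.9%) and 14.1% of the other bound genes. Of these 7, 6 encode elongation factors. Below the median of the other bound genes lay 11 initiation factor genes and no elongation factor gene.

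**Figure D2:**
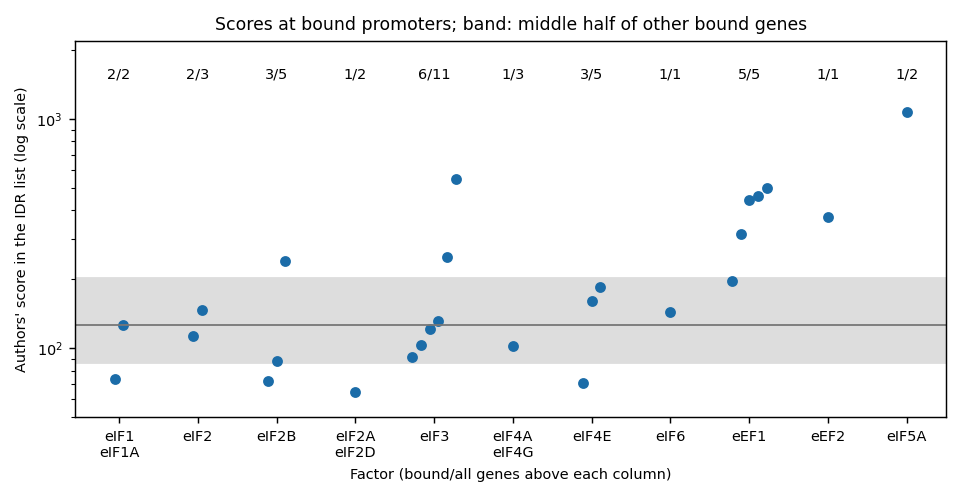
Authors' score of each bound promoter in the IDR list (y axis, log scale) by factor (x axis), with the number bound of all genes above each column. The line and grey band give the median (127) and the middle 50% of the other bound genes; iff-2 stands highest at 1073 and eif-2D lowest at 64.8.

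Elongation factor genes carried strong regions. The gene iff-2 encodes an eIF5A, the hypusine-bearing factor that helps ribosomes form difficult peptide bonds, and its region (chromosome II, 8561249 to 8561606) had rank 26 in the IDR list. Its score was 384 in replicate 1, 492 in replicate 2 and 204 in replicate 3. These correspond to ranks 33, 23 and 11, so iff-2 stood near the top of every list. The point source lay at −74.0 bp ± 4.36 (SD, n = 3), within the printed stretch. Its paralogue iff-1, known for its role in germline proliferation and P granules, had a region in the window of each relaxed list, with scores of 23.6, 16.5 and 12.1 in replicates 1, 2 and 3. Their ranks, 6587, 11002 and 6617, all lay below the top regions, and the nearest point source of the IDR list was at −5808 bp (score 66.5). In every replicate iff-2 was far above iff-1, although the window of iff-1, with 3 TSSs, was the longer one.

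The protein eEF1A carries aminoacyl-tRNAs to the ribosome and is encoded by eef-1A.1 and eef-1A.2; the promoter of eef-1A.1 (also called eft-3) is widely used to drive transgenes in most worm tissues. The eef-1A.1 region (chromosome III, 6971907 to 6972270, score 499) scored 209, 216 and 78.3 in replicates 1, 2 and 3, with ranks 91, 99 and 202. The eef-1A.2 region (chromosome X, 7823050 to 7823486, score 443) scored 200, 169 and 88.8, with ranks 106, 191 and 141. The ranks of the eEF1A genes overlapped, so their order is not settled by 3 replicates. Both point sources lay far upstream, at −382 bp ± 8.33 and −368 bp ± 22.5 (SD, n = 3). The eef-1A.1 point source is ambiguous, because it lay nearer to the TSS of the microRNA gene cel-mir-5549 and to that of the divergent replication factor gene rfc-4, whereas that of eef-1A.2 lay in no other gene's window. The printed stretches of these paralogues also differ, the one of eef-1A.1 with 2 CpG in 56 bases and the one of eef-1A.2 with 12 in 100.

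The nucleotide exchange factor that recharges eEF1A is built from products of eef-1B.1, eef-1B.2 and eef-1G. The eef-1G region (chromosome V, 10965540 to 10965841, score 460) scored 175, 188 and 98.1 in replicates 1, 2 and 3, with ranks 157, 141 and 101. The eef-1B.1 region (chromosome III, 7973252 to 7973569, score 317) scored 137, 125 and 57.8, with ranks 290, 422 and 446. The eef-1B.2 region (chromosome IV, 15037091 to 15037291, score 197) scored 80.7, 84.0 and 27.7, with ranks 973, 956 and 1983. The eef-1B.2 gene thus ranked below the other eEF1 genes in each replicate. It is also the one of them with a same-strand gene close upstream, fcd-2, which ends 295 bp before it. The high-scoring initiation factor gene eif-3.C has such a neighbour too, sys-1, at 401 bp. The part of such neighbours in the ranks was not tested. The point source lay at −27.0 bp ± 8.54 at eef-1G, −4.67 bp ± 8.50 at eef-1B.1 and −150 bp ± 10.7 at eef-1B.2 (SD, n = 3).

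The protein eEF2 moves the ribosome by one codon after each peptide bond. The eef-2 region (chromosome I, 9163387 to 9163682, score 376) scored 142, 173 and 63.0 in replicates 1, 2 and 3, with ranks 274, 176 and 363. The positions of its point source were −8 bp, 3 bp and 5 bp. Like eef-1B.1 and unlike the eEF1A genes, eef-2 was thus bound at the annotated start.

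The small factors eIF1 and eIF1A, which help the ribosome scan for the start codon, were both bound. The eif-1.A promoter (score 127) ranked 2050, 2428 and 1712 in replicates 1, 2 and 3. The eif-1 promoter (score 73.2) ranked 5285, 4490 and 3700 and so fell just outside the top regions of replicate 1. Its point source lay nearer to the TSS of the divergent gene vps-24. The factor eIF2 brings the initiator tRNA, and its genes eif-2gamma (score 147) and eif-2beta (113) were bound in all 3 replicates. The eif-2beta point source lay inside the gene, at −221 bp from an internal TSS, and outside the window of the outermost TSS. The third subunit gene, eif-2alpha, whose product is the target of stress kinases, was not bound. Its strongest region ranked 5447, 10563 and 11494, all below the top regions, and its nearest IDR point source lay at −1766 bp (score 172). The gene phb-1 ends 133 bp before eif-2alpha on the same strand, and tbca-1 ends 313 bp before the bound eif-2gamma on the same strand.

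The exchange factor eIF2B, which reloads eIF2 with GTP, has 5 subunit genes, of which 3 were bound. The eif-2Bbeta region (chromosome I, 11893758 to 11893965, score 242) scored 90.2, 106 and 34.6 in replicates 1, 2 and 3, with ranks 776, 585 and 1334. Its point source had the smallest spread of the genes present in all 3 lists, −135 bp ± 1.53 (SD, n = 3), but lay nearer to the TSS of the divergent gene Y47H9C.8. The eif-2Bdelta (score 88.5) and eif-2Balpha (72.2) promoters were weaker, with ranks of 10700 and 8008 in replicate 3, outside its top regions, and eif-2Balpha was outside those of replicate 1 too (rank 5663). The gene of the catalytic subunit, eif-2Bepsilon, was not bound in the IDR list although its window held a top region of replicates 1 and 3 (ranks 2321 and 4964). No region of replicate 2 lay in that window, and the nearest IDR point source was at −21181 bp (score 79.6). The gene eif-2Bgamma held a top region of replicate 1 alone (rank 3730), and its nearest IDR point source lay at −896 bp with a score of 202. Of the separate factors eIF2A and eIF2D, eif-2D was bound with the lowest score of the 26 (64.8; ranks 2584, 13053 and 23771), and eif-2A was not. The eif-2A window held a region of replicate 2 alone (rank 7669), and the nearest IDR point source was at −21213 bp (score 136).

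The scaffold eIF3 is the largest initiation factor, and 6 of its 11 genes with an eif-3 name were bound. The eif-3.C region (chromosome I, 9979741 to 9980074, score 548) scored 239, 212 and 99.1 in replicates 1, 2 and 3, with ranks 71, 107 and 98, at −242 bp ± 7.51 (SD, n = 3). It was the one initiation factor gene among the 500 highest ranks of the IDR list. The eif-3.B region (chromosome II, 14794987 to 14795269, score 251) scored 112, 93.8 and 43.4, with ranks 478, 761 and 868, at −272 bp ± 17.0. The gene eif-3.C ranked above eif-3.B in each replicate. The promoters of eif-3.D (score 131), eif-3.I (121), eif-3.G (104) and eif-3.H (92.2) were bound at lower scores, and that of eif-3.H was outside the top regions of replicate 3 (rank 6984). The genes eif-3.E, eif-3.F, eif-3.J, eif-3.K and eif-3.L were not bound, and eif-3.L had no region in any relaxed list. Their nearest IDR point sources lay at −24840 bp for eif-3.E (score 73.7), −6564 bp for eif-3.F (95.0) and −934 bp for eif-3.J (183). Those of eif-3.K and eif-3.L lay at −2723 bp (132) and 2250 bp (105). The wide window of 1000 bp upstream therefore takes in eif-3.J, but none of the other unbound eIF3 genes.

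The gene eif-3.E differed between replicates. Replicate 3 placed a region with rank 879 at −190 bp (chromosome I, 10642273 to 10642668, score 43.1), and the relaxed lists of replicates 1 and 2 had no region in the window. The nearest point sources of those lists lay 2143 bp and 2072 bp from that of replicate 3. Of the 662 genes with a rank of 1000 or better in replicate 3, 15 had no point source in the window in either of the other relaxed lists, while replicates 1 and 2 gave 2 such genes of 708 and 2 of 689. Some of these rest on the edge of the window or share a region. Counted as distinct regions with no point source of either other replicate within 500 bp, a limit chosen after the values were seen, there were 9 in replicate 3, that of eif-3.E included, and 0 in replicates 1 and 2. Replicate 3 has another stock source and its own fragmentation note in the labels; their part in this was not tested.

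The cap-binding complex eIF4F joins eIF4E, the scaffold eIF4G and the helicase eIF4A. The eIF4A gene inf-1 was bound (score 103; ranks 2438, 3447 and 3808 in replicates 1, 2 and 3). The eIF4G gene ifg-1 was not: its window held a region of replicate 1 alone (score 14.8, rank 11585, at 62 bp), while the nearest IDR point source, with a score of 90.7, lay at −612 bp, outside the window. The related helicase gene eif-4A3, whose product is part of the exon junction complex, was not bound, and its nearest IDR point source was at −80450 bp (score 100.3). Of the 5 eIF4E genes, 3 were bound. The ife-2 region (chromosome X, 382804 to 383003, score 185), at a gene expressed in the soma, scored 90.2, 70.5 and 26.7 in replicates 1, 2 and 3, with ranks 778, 1309 and 2141. The ife-4 region (chromosome X, 1103733 to 1104136, score 162), at a gene known from neurons and muscle, scored 63.1, 60.5 and 36.2, with ranks 1534, 1723 and 1218. Replicates 1 and 2 placed ife-2 above ife-4 and replicate 3 placed it below, so their order was not settled. The point sources lay at −218 bp ± 23.5 and −296 bp ± 34.3 (SD, n = 3). The ife-3 region (chromosome V, 8249 to 8362, score 70.9) scored 41.3 and 28.5 in replicates 1 and 2, with ranks 3038 and 5347, and was missing from replicate 3. The product of ife-3 is needed in germline and embryo.

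The remaining eIF4E genes, ife-1 and ife-5, both known from the germline, were not bound. The gene ife-1, whose product joins P granules, had no region in the window of any replicate, and its nearest IDR point source lay 997 bp downstream of a TSS (score 105). The gene ife-5 had a region of replicate 2 alone, with a score of 9.18 and rank 20831, and its nearest IDR point source was at −17902 bp (score 85.3). The cap-binding family therefore ran from ife-2 and ife-4, in the top regions of all 3 replicates, to ife-1, in the window of which no replicate had a region. The gene eif-6, whose product keeps the large ribosomal subunit from joining early, was bound (score 144; ranks 2120, 1620 and 1635). The eif-6 point source is ambiguous, at −327 bp from its TSS and −339 bp from that of the divergent gene pbs-2.

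**Figure D3:**
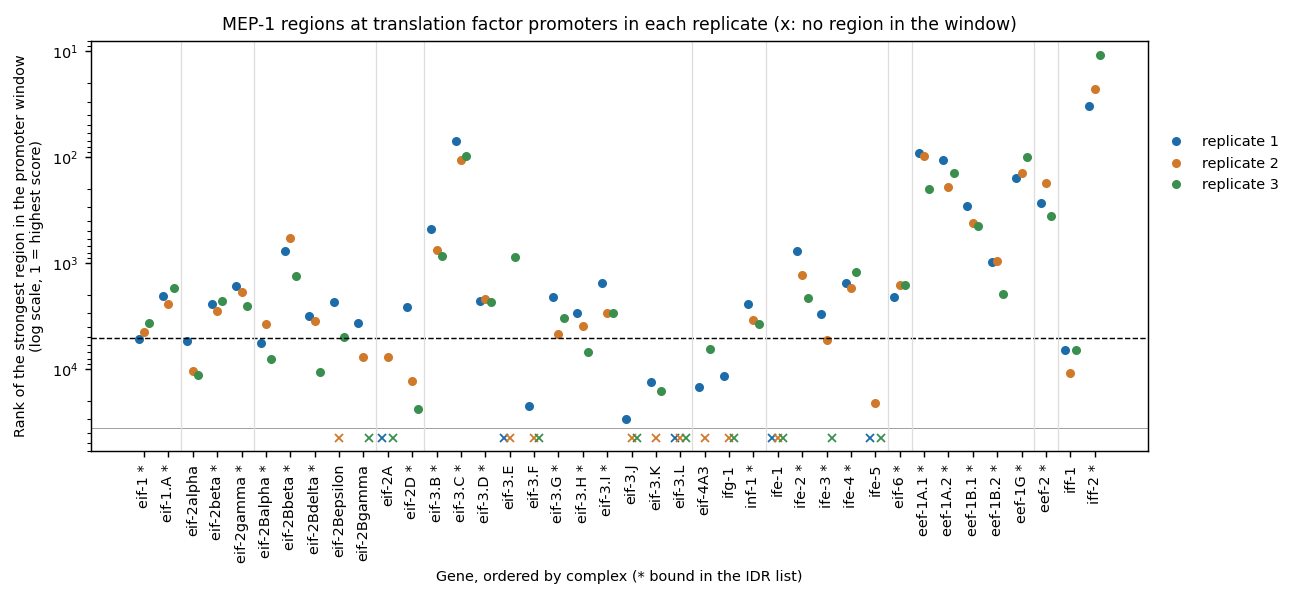
Rank of the strongest region in the promoter window of each of the 40 genes (y axis, log scale, 1 is the highest score) in replicates 1, 2 and 3 (colours), with genes ordered by factor (x axis) and an asterisk for those bound in the IDR list. The dashed line is rank 5167, and crosses mark windows with no region; iff-2 lies between ranks 11 and 33, and eif-3.E has a region in replicate 3 alone.

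Replicates placed the bound genes in nearly the same order. Over the 25 bound genes with a region in all 3 relaxed lists, Spearman's rho of the ranks was 0.937 for replicates 1 and 2, 0.931 for 1 and 3, and 0.945 for 2 and 3. This is a description over genes, which share the libraries and whose presence in the IDR list already rests on these replicates. All 20 bound genes with an IDR score of 100 or more were in the top regions of all 3 replicates, and none of the 6 with a score under 100 was. These 6 were eif-1, eif-2Balpha, eif-2Bdelta, eif-2D, eif-3.H and ife-3. The limit of 100 was not planned and falls between the scores of eif-3.H (92.2) and inf-1 (103). The IDR score is that of the pooled list of the same replicates, so this split is partly built in. It was not counted over all bound genes. Among the other pathway genes described further on, gcn-1 (133) and pek-1 (110) were not in all 3 top lists. There daf-15 (98.9) was in all 3, and the remaining bound genes of that list kept to the split. Replicate 3 gave the poorest rank of the 3 to 15 of the 25 genes and the best to 6. The same count over the other bound genes was not made, so this is not known to be particular to these genes.

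Point sources at these genes were mostly well upstream of the start. The median position at the 26 promoters was −235 bp, from −435 bp at ife-3 to 3 bp at eef-2, and that at the other bound genes was −188 bp. At 16 of the 26 (61.5%) the point source was more than 200 bp upstream, beside 46.2% of the other bound genes. With a window of 200 bp upstream to 100 bp downstream, 10 of the 40 genes were bound, beside 6.96% of all genes. Many worm transcripts are trans-spliced, so an annotated TSS need not be the start of the primary transcript. Over the 25 genes with 3 positions the range between replicates had a median of 35 bp, and 10 of them kept within 30 bp. The other bound genes had a median range of 44 bp. The widest range was 124 bp, at eif-3.H. By the annotation 23 of the 26 point sources were intergenic, and the same split over the other bound genes was not counted. That of eif-2beta lay in an intron of the gene and that of eef-2 in an exon of the gene. At eef-1B.1 it lay in an exon of the non-coding gene F54H12.9.

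**Figure D4:**
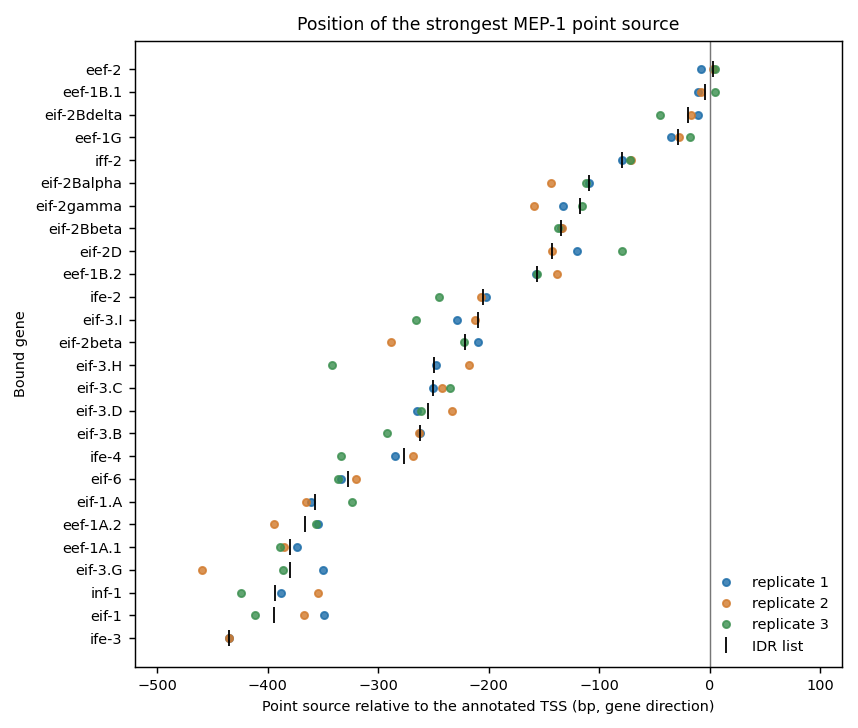
Position of the strongest point source relative to the annotated TSS (x axis, bp in the direction of the gene) at the 26 bound genes (y axis), for replicates 1, 2 and 3 (coloured points) and the IDR list (black ticks). Positions of the IDR list run from −435 bp at ife-3 to 3 bp at eef-2, and replicates lie close together at eif-2Bbeta and iff-2.

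Promoter layout was compared because 1 point source can lie in the windows of several genes. The 26 genes rested on 26 distinct point sources, 11 of which also lay in the window of another protein-coding gene. How often point sources of the other bound genes are shared was not counted. For 21 of the 40 genes the TSS was the nearest protein-coding one to a point source of the IDR list, beside 10.5% of all genes. The 5 bound genes that were not nearest were eef-1A.1, eif-1, eif-2Bbeta, eif-3.D and eif-3.H, and at each a divergent gene was closer. At eef-1B.1, eef-1G, eef-2, eif-2D, eif-3.I and eif-6 the point source was also shared with a divergent gene, whose TSS was farther. Of the 20 genes with a divergent TSS within 1000 bp upstream 14 were bound, beside 27.2% of all such genes, and of the other 20 genes 12 were bound, beside 9.42%. Of the 27 genes with no same-strand gene within 1000 bp upstream 20 were bound (74.1%), beside 13.7% of all such genes. Of the 13 with a close same-strand gene upstream, as in operons, 6 were bound (46.2%), beside 10.6%. Genes with several TSSs have more window to hit: with 1 annotated TSS, 15 of 21 were bound beside 9.81% of all such genes, and with 2 or more, 11 of 19 beside 20.3%. In the part of the IDR list at or above its median score (107), 18 of the 40 were bound, beside 7.74% of all genes. The part played by layout in the share of bound genes was not tested.

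Base composition at the point sources was described over 200 bp. The ratio of observed to expected CpG had a median of 1.47 at the 26 promoters, from 0.808 at eef-1A.1 to 2.29 at eif-2Balpha. At 2057 point sources of other bound promoters the median was 1.22, with the middle 50% between 0.946 and 1.55, and the nuclear genome stood at 0.995. The strongest promoters fell on both sides: iff-2 had 1.19, eef-1A.2 had 1.5, eef-1G had 0.912 and eif-3.C had 1.55. Of the 26, 17 lay above the median of the others. GC content went the other way, with a median of 38.2% at the 26 and 40.5% at the others, and it was 35.4% in the genome. Within 100 bp the medians were 47% and 45%, so this order depended on the window.

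**Figure D5:**
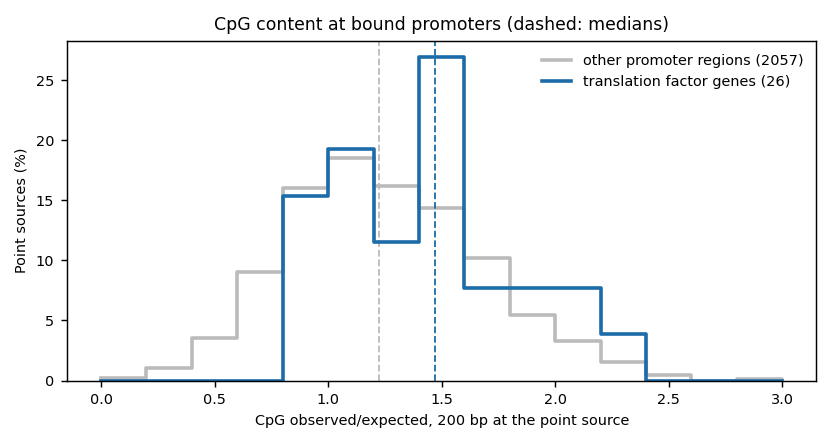
Distribution of the CpG observed/expected ratio in 200 bp at the point source (x axis) as the percentage of point sources (y axis), for the 26 translation factor promoters (blue) and 2057 other bound promoter regions (grey). Dashed lines are the medians, 1.47 and 1.22, and the distributions overlap widely.

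Short words were looked for on both strands of the same 200 bp. The worm splice acceptor word TTTCAG was found at 7 of 26 (26.9%), beside 19.7% of the other regions, and the TATA word TATAAA at 5 (19.2%), beside 17.2%. The GA repeat GAGAGA was found at 6 (23.1%), beside 34.1%, and the run TTTTTT at 15 (57.7%), beside 59.2%. The GC-box word CCGCCC was found at 2 (7.69%), beside 10.6%, and GCGTCTC at 1 (3.85%), beside 14.8%. The E-box CACGTG was found at none of the 26, beside 6.08%. In the printed stretches GAGAGA lay in that of eef-1A.2 and TATAAA in that of eif-3.B. With 26 regions, 1 region more or less moves such a share by several percentage points.

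Other genes of the pathway were taken from a list of 32 symbols, of which 29 were in the annotation and gfm-2, mtif-2 and mtif-3 were not. Of the 29, 14 were bound (48.3%), beside the 12.7% of all genes. Among ribosome release and recycling genes 3 of 7 were bound, namely the release factor genes erfa-1 and erfa-3 (score 153) and abcf-3. Of the poly(A), cap and 4E regulator genes 2 of 5 were bound, the poly(A)-binding protein genes pab-1 and pab-2 (score 239), while ifet-1, ncbp-1 and ncbp-2 were not. The call at ifet-1 concerns the window edge: replicate 3 had a point source of rank 24 at −500 bp. The nearest point sources of replicates 1 and 2 were 16 bp and 5 bp from it. Of the TOR pathway genes, which tune translation to nutrients, 3 of 7 were bound, namely the GTPase genes rheb-1 (score 259) and ragc-1 (score 170) and the Raptor gene daf-15. The TOR kinase gene let-363 and the S6 kinase gene rsks-1 were not bound. The eIF2 kinase gene pek-1 and the activator gene gcn-1 were bound, while the kinase gene gcn-2 was not. Of the mitochondrial translation factor genes 3 of 4 were bound, and of the regulators efk-1, dhps-1 and dohh-1, efk-1 alone. Among the 14 bound genes, gcn-1, pek-1, efk-1 and tufm-1 were not in the top regions of all 3 replicates.

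Some translation factors have other names in worms and so fall outside the naming rule. After the values of the 40 genes had been seen, 4 of them were added. The eIF4H gene drr-2 was bound (score 715, rank 51 in the IDR list; ranks 46, 60 and 55 in replicates 1, 2 and 3). The eIF3 genes egl-45 and cif-1 and the eIF5B gene iffb-1 were not bound. The window of egl-45 held a top region of replicate 1 alone (rank 4289), with rank 8460 in replicate 2 and no region in replicate 3. Thus 1 of the 4 was bound, beside 12.7% of all genes.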

How the data were processed

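Per the sample README files, the authors deposited a relaxed list of regions called against a control for each of the 3 replicates and for their pool, and the optimal IDR list drawn from these. The deposited score is the caller's signal value, and at all 26 bound genes the IDR list gives the score of the pooled list. The deposited −log10 q-value is the same in every IDR region, so regions were ranked by score. The point source offset is likewise the authors' own. The sources used here do not give the caller, aligner, score scale, IDR threshold or read depth, so counting error cannot be set. The control and the ce10 lists were not analysed here.

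Coordinates are ce11 and 1-based, with the Ensembl release 115 annotation of WBcel235 (the same assembly); all regions lay within its chromosome lengths. Where regions share an interval, each point source kept its own score. Positions in replicates refer to the TSS of the IDR point source. Overlap meant 1 bp or more. Assignment to promoters was tested on simulated data. Python 3.11.15, pandas 2.3.3 and numpy 2.4.6 were used. No statistical test was made. The genes and lists were chosen with earlier results of these data known. Values in every replicate were given for the 12 bound genes with the highest scores and for the ife, iff, eEF1A and ifg-1 genes, whatever their values. Unbound genes were given with their nearest IDR point source, and values of other pathway genes for the 4 with the highest scores. Sequences were drawn for up to 6 high-scoring genes outside chromosome I; eef-1B.1 had under 30 bases free of exons and is not shown. Alternatives covered the window, the TSSs used, region overlap, the score threshold, each list and each replicate left out.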

Additional observations from a re-analysis of the deposited data

How the results depend on the processing

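Of 58 alternatives over 7 results, 53 gave a value within 1.5 times of that reported. With a window of 200 bp upstream to 100 bp downstream, 10 translation factor genes were bound (5 of them initiation factor genes), 9 had the nearest TSS and 7 were bound in all 3 replicates, because 16 of the 26 point sources lie farther upstream; all genes fell to 6.96%, 6.22% and 3.99%. At or above the median IDR score, 11 initiation factor genes were bound and all 7 elongation factor genes, beside 7.74% of all genes. The wide window (1000 bp upstream to 200 bp downstream) gave 29, region overlap 27, the outermost TSS 25 (without eif-2beta) and the pooled list 26. Of all genes, these alternatives gave 16.3%, 14.3%, 11.6% and 12.7%. Leaving out 1 replicate gave 20 to 22 bound genes (13 to 15 initiation and 7 elongation factor genes), beside 9.3% to 9.95% of all genes. With the nearest TSS it gave 17 to 18, beside 7.48% to 8.06% of all genes. In the top regions of both other replicates 21 to 22 were bound, beside 9.57% to 10.1%. The IDR sets keep 67.3% to 72.1% of the IDR regions and are stricter. Read depth is unknown, so a promoter not bound here is one with no region at these thresholds.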

Other observations

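Not every window held by 1 replicate alone marks a region of that replicate alone. At ifet-1, whose product is a partner of eIF4E in germline mRNA control, replicate 3 had a point source of rank 24 at −500 bp, the edge of the window, and the nearest point sources of replicates 1 and 2 were 16 bp and 5 bp away. At cept-2 (rank 221 in replicate 3, at −317 bp) they were 2485 bp and 2250 bp away. Both genes were chosen after their values were seen.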
